A study of Mus musculus with 10 samples.

Results

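The collagens are a family of matrix proteins whose genes carry symbols made of Col, a type number, the letter a and a chain number. The table of RNA-seq counts held 44 such rows of 49585 rows in all. They fell into 11 fibrillar genes, 6 basement membrane genes (type IV), 6 beaded genes (type VI), 9 genes of the fibril-associated class called FACIT and 12 others. Membership follows the symbol alone, and no measured value enters that rule. Values come from left ventricles of male ICR mice, an outbred stock, collected 4 weeks after an experimental myocardial infarction with atria, valves and right ventricle removed. One group of 5 libraries is from infarcted hearts labelled 4FM3, and the other of 5 libraries from infarcted hearts given phosphate-buffered saline (PBS). The series title speaks of reprogramming by AAV, a virus used to carry genes into tissue, but the sources used here do not give what 4FM3 stands for, the promoter that drives it or the cells it reaches. A time of 8 weeks, counted from a point that is not stated, is also attached to each label. Uninjured hearts and an empty vector are not part of the comparison, so it sets infarcted ventricles labelled 4FM3 against infarcted ventricles given PBS. The labels number the replicates without saying whether each came from its own animal, and p-values here reflect variation from library to library.

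A collagen molecule is a triple helix of chains that are the same or come from different genes of one type. Fibrillar collagens, led by types I and III in the heart, assemble into the fibres that form a scar and fill the space between muscle cells. Type IV forms a sheet-like network in the basement membranes around muscle cells and vessels, type VI forms beaded filaments at the border between cells and fibres, and FACIT collagens sit on the surface of fibrils. After infarction, activated fibroblasts are the main source of the scar's fibrillar collagen.

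Total counts ranged from 6634159 to 7711177 per library, and a count of 0 allows up to 3 counts, or 0.371 to 0.481 CPM, which covers counting error only. CPM is the count relative to the library size after scaling by TMM, edgeR's trimmed mean method. The label of the tissue was matched by cardiomyocyte markers, of which 10 of 10 were detected, with a summed level of 112700 to 138300 CPM in 4FM3 and 74500 to 100600 CPM in PBS. Lung markers stood out in 2 libraries: without Hopx, which the heart also expresses, they summed to 1017 CPM in PBS replicate 2 and 984 CPM in PBS replicate 3, against 0.614 to 22.8 CPM in the other 8 libraries. Collagen results that rest on these libraries are given with and without them. Replicates of a group differed by more than counting noise.

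Collagen RNA was lower in 4FM3 than in PBS ventricles, and the mean share of counts was lower in each of the 5 classes. The family took 0.698 ± 0.196% of all counts in 4FM3 and 1.501 ± 0.172% in PBS (SD, n = 5 each). By library the share was 0.521%, 0.896%, 0.526%, 0.627% and 0.920% in 4FM3 replicates 1 to 5, against 1.39%, 1.75%, 1.46%, 1.31% and 1.595% in PBS replicates 1 to 5. Every 4FM3 library lay below every PBS library, and 4FM3 replicates 2 and 5 were the highest of their group. In bulk tissue, fewer cells of a type and less RNA per cell cannot be told apart.

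**Figure D1:**
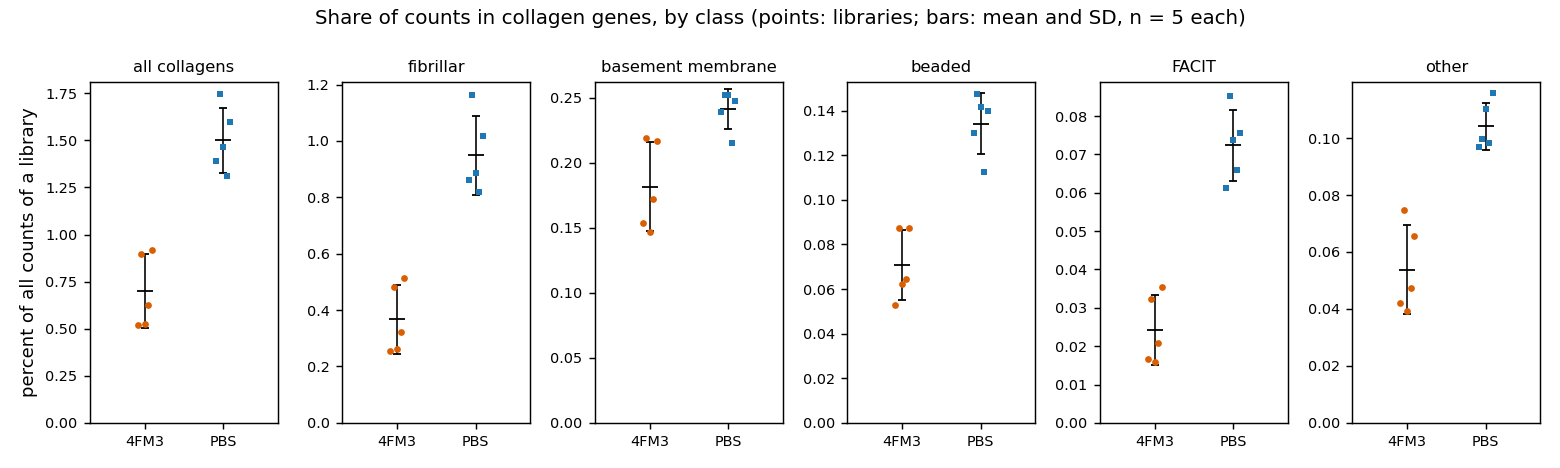
Share of each library's counts that fell in collagen genes, in percent, for the whole family and for each class. Points are libraries, with 4FM3 left of PBS, and bars give the group mean and SD (n = 5 each); for the whole family the 4FM3 libraries sit between 0.521% and 0.920% and the PBS libraries between 1.31% and 1.75%.

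Of the 44 members, 35 passed the filter on low counts and were tested with edgeR's quasi-likelihood test across 12906 genes. The test called 25 of the 35 lower (71.4%) and 0 higher, and 10 did not pass, where over all genes tested 22.1% were called lower, 20.9% higher and 43.0% either way. At an unadjusted p under 0.05 the count of members higher was likewise 0, and DESeq2 and limma-voom also gave 0. The median log2 fold change of the 35 was -0.88, beside -0.03 over all genes tested, and 33 of the 35 estimates were negative. In 21 members every 4FM3 library lay below every PBS library, a separation found in 13.4% of all genes tested. Of the 35, 4 passed the filter mainly through PBS (Col7a1, Col9a2, Col24a1 and Col13a1) and 1 mainly through 4FM3 (Col17a1), so the counts over tested members are a description of those that passed. Without PBS replicates 2 and 3 the count of members lower was 21, beside 12.8% lower over all genes tested there. Scaling by library size alone gave 31, beside 38.5% lower over all genes tested, and shifted the all-gene median by -0.18 in log2.

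A stricter test against a change of 1.5-fold passed 7 members, all lower, where it passed 0.961% of all genes tested as lower and 0.542% as higher. The 7 were the fibrillar Col3a1, Col1a2 and Col27a1, the FACIT genes Col14a1, Col12a1 and Col22a1, and Col7a1. Their adjusted p lay between 0.0318 and 0.0465. The smallest was that of Col7a1, which passed the filter mainly through PBS, with 1 of 5 4FM3 libraries over the minimum against 5 of 5 in PBS. The count of 7 rested on single libraries: it was 0 without 4FM3 replicate 1, 3 or 4 or without PBS replicate 2 or 5, and it was 14 without 4FM3 replicate 5, 12 without 4FM3 replicate 2, 4 without PBS replicate 1, 3 without PBS replicate 4 and 1 without PBS replicate 3. The share of all genes past 1.5-fold was not counted with libraries left out. Whether these shifts are particular to the collagens therefore cannot be read from them.

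**Figure D2:**
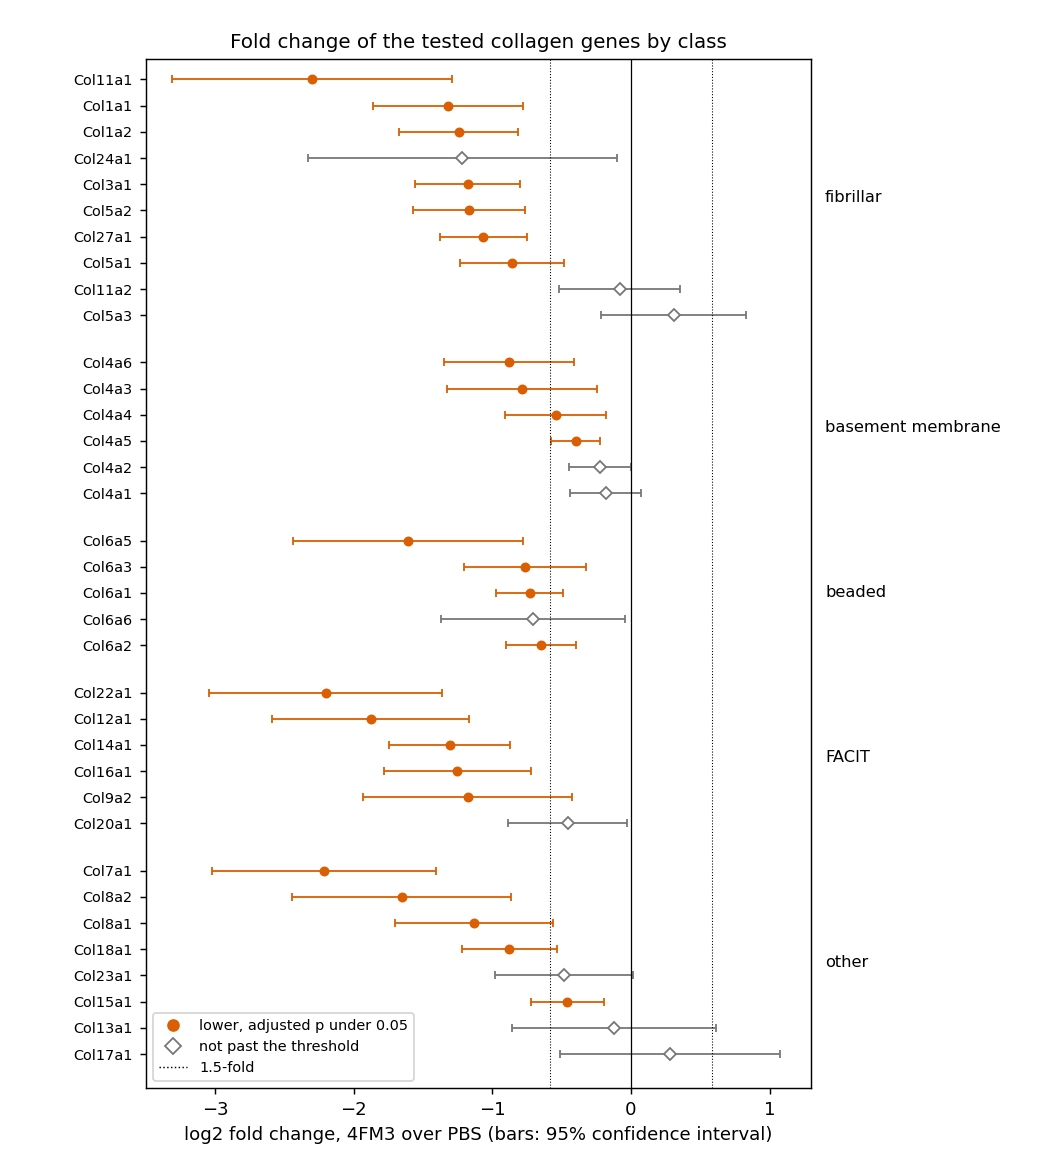
Fitted log2 fold change, 4FM3 over PBS, of the 35 tested collagen genes grouped by class, with 95% confidence intervals; filled points passed the adjusted threshold and open points did not, and dotted lines mark 1.5-fold. Of the 35 estimates 33 lie left of 0, with Col5a3 (0.31) and Col17a1 (0.28) to the right.

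The makeup of the family also differed by class. Fibrillar genes took 52.0 ± 2.87% of collagen counts in 4FM3 and 63.1 ± 2.26% in PBS, while the basement membrane genes took 26.6 ± 2.48% in 4FM3 and 16.2 ± 1.19% in PBS (SD, n = 5 each). Col1a1, Col1a2 and Col3a1 alone held 44.7 ± 2.77% of collagen counts in 4FM3 and 55.7 ± 2.01% in PBS. FACIT genes held 3.40 ± 0.334% in 4FM3 and 4.82 ± 0.264% in PBS. For the fibrillar, basement membrane and FACIT classes the ranges of the groups did not overlap, and no test was run on these parts of a whole. Per kb of annotated exon, the members with the highest mean level over all libraries were Col3a1 (155 CPM per kb in 4FM3 and 350 in PBS), Col1a1 (139 in 4FM3 and 347 in PBS), Col4a1 (123 in 4FM3 and 139.7 in PBS), Col4a2 (120.3 in 4FM3 and 140.2 in PBS) and Col1a2 (74.2 in 4FM3 and 176 in PBS). The length is the union of all annotated exons, 12426 bases for Col1a2 and 6563 for Col1a1, so this order depends on the annotation. Before division by length, Col1a2 averaged 922 CPM in 4FM3 and 2183 CPM in PBS. Col1a1 averaged 912 CPM in 4FM3 and 2276 CPM in PBS.

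The fibrillar class, which holds the most abundant members, had 7 of 10 tested members lower and a median log2 fold change of -1.17. Col3a1 (chromosome 1, 45311538 to 45349706, GRCm38) encodes the single chain of type III, the finer fibre of the heart wall. It had 1153, 1893, 1166, 1356 and 2014 CPM in 4FM3 replicates 1 to 5, against 3305, 4345, 3054, 3004 and 3450 CPM in PBS replicates 1 to 5. The groups did not overlap, 4FM3 replicates 2 and 5 were the highest of their group and PBS replicate 2 the highest of all. Col3a1 was 2.26-fold lower in 4FM3 (log2 fold change -1.18, SE 0.175, adjusted p = 0.000424) by edgeR's quasi-likelihood test. Col1a1 (chromosome 11, 94936224 to 94953042) encodes the chain that occurs in 2 copies in type I, the stiff fibre of scar. It had 556, 1184, 579, 846 and 1393 CPM in 4FM3 replicates 1 to 5, against 2032, 2672, 2212, 2039 and 2425 CPM in PBS replicates 1 to 5. Again every 4FM3 library lay below every PBS library, with the same 2 4FM3 libraries nearest to PBS. Col1a1 was 2.496-fold lower in 4FM3 (log2 fold change -1.32, SE 0.245, adjusted p = 0.00178). Col1a2 (chromosome 6, 4504814 to 4541544), the partner chain of type I, had 647, 1251, 636, 819.6 and 1257 CPM in 4FM3 replicates 1 to 5, against 2065, 2349, 2094, 2007 and 2399 CPM in PBS replicates 1 to 5. It was 2.37-fold lower in 4FM3 (log2 fold change -1.24, SE 0.197, adjusted p = 0.000662), and its groups did not overlap.

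**Figure D3:**
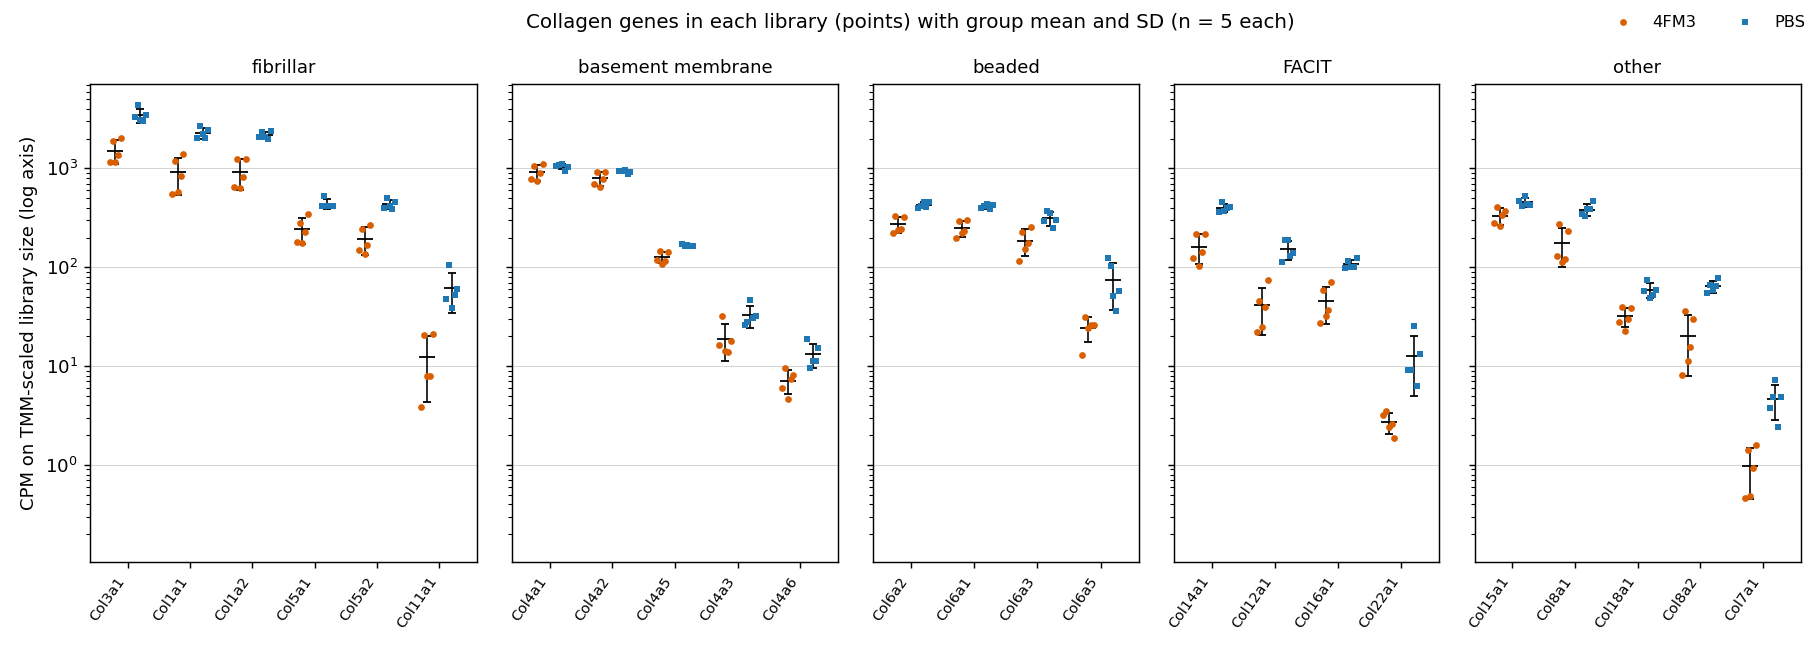
Level of 24 collagen genes in each library, as CPM on a log axis, by class and in order of mean level within the class. Points are libraries, 4FM3 left of PBS, and bars give the mean and SD (n = 5 each); Col4a1 and Col4a2 overlap between groups, while Col1a1, Col1a2 and Col3a1 do not.

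Type V and type XI are minor fibrillar collagens that start fibrils and limit their width. Col5a1 had 181, 280.2, 178, 227 and 344 CPM in 4FM3 replicates 1 to 5, against 412, 522, 421, 415 and 421 CPM in PBS replicates 1 to 5. The gene was 1.81-fold lower in 4FM3 (log2 fold change -0.86, SE 0.172, adjusted p = 0.00247), with no overlap, and PBS replicate 2 stood above the other PBS libraries. Col5a2, its partner chain, had 149, 246, 136, 168 and 268 CPM in 4FM3 replicates 1 to 5, against 398, 506, 419, 392 and 457 CPM in PBS replicates 1 to 5. The gene was 2.25-fold lower in 4FM3 (log2 fold change -1.17, SE 0.183, adjusted p = 0.000717), with no overlap. Col5a3, the third chain of the type, was not called: it averaged 76.4 ± 12.7 CPM in 4FM3 and 61.8 ± 21.5 CPM in PBS (SD, n = 5 each), with a log2 fold change of 0.31 (95% interval -0.22 to 0.83, adjusted p = 0.315). Its groups overlapped, and the 2 lowest values were those of PBS replicates 4 and 5.

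Col11a1, a chain best known from cartilage, had the largest fitted change of all 35 members. It had 3.83, 20.5, 8.01, 8.02 and 21.1 CPM in 4FM3 replicates 1 to 5, against 47.9, 106, 39.0, 52.3 and 60.5 CPM in PBS replicates 1 to 5. The 4FM3 libraries were spread wide but all lay below the lowest PBS library. Col11a1 was 4.92-fold lower in 4FM3 (log2 fold change -2.30, SE 0.449, adjusted p = 0.00327). Markers of cartilage moved with it: of 8 markers with a row, 4 were tested and all 4 were lower, and the summed level was 54.6 to 284 CPM in 4FM3 and 484 to 785 CPM in PBS. Most of that sum was Comp (4.06-fold lower), which fibroblasts and tendon also express. Sox9 was 2.18-fold lower, at 13.5 CPM in 4FM3 and 29.5 CPM in PBS on average. Acan (3.31-fold lower, 1.36 CPM in 4FM3 and 4.58 CPM in PBS) and Chad (5.14-fold lower, 0.50 CPM in 4FM3 and 2.69 CPM in PBS) were at low levels. Matn1 had 0 counts in all 10 libraries. The part of the cartilage markers in the result was not tested. Col27a1, another chain found in cartilage, was 2.09-fold lower in 4FM3 (log2 fold change -1.06, SE 0.145, adjusted p = 0.000297). Col24a1 (log2 fold change -1.22, adjusted p = 0.0728) and Col11a2 (log2 fold change -0.08, adjusted p = 0.765) did not pass. The value of Col24a1 rested on 4FM3 replicate 5: without it the log2 fold change was -2.04 (adjusted p = 0.00177), and it was -0.79 (adjusted p = 0.345) without PBS replicates 2 and 3. Col24a1 also passed, as lower, without PBS replicate 5, with limma-voom and with library size alone as scaling. Col2a1, the main fibre of cartilage, was too low to test, with 0 to 9 counts in 4FM3 and 2 to 71 counts in PBS, the 71 in replicate 2.

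Markers of fibroblasts, the cells that make most fibrillar collagen, were lower for 7 of 10 genes and higher for 0, beside 22.1% lower over all genes tested. Their summed level was 1934 to 3396 CPM in 4FM3 and 2912 to 3633 CPM in PBS. Most of that sum was Gsn, which was not called, with 1509 to 2727 CPM in 4FM3 and 2091 to 2768 CPM in PBS. Pdgfra, a receptor that marks cardiac fibroblasts, was 1.39-fold lower (log2 fold change -0.47, adjusted p = 0.000925). Divided by Pdgfra in the same library, a ratio chosen after values had been seen and given with no test, Col1a1 stood at 4.05 to 9.76 in 4FM3 and 10.9 to 13.5 in PBS. The same ratio for Col3a1 was 8.16 to 14.1 in 4FM3 and 15.01 to 21.9 in PBS. Neither ratio to Pdgfra overlapped between the groups, but this depended on the marker. Over each of the 10 markers, all 4FM3 libraries lay below all PBS libraries with 5 markers for Col1a1 and with 3 for Col3a1, and the groups overlapped with the others. Over Vcam1, the marker with the largest change, Col1a1 stood at 19.8 to 45.9 in 4FM3 and 21.6 to 47.9 in PBS. The part of these markers in the result was not tested.

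Type IV, the basement membrane collagen, gave smaller changes, with 4 of 6 members lower and a median log2 fold change of -0.47. Col4a1 and Col4a2 encode the chains of the network found in nearly all basement membranes. Col4a1 (chromosome 8, 11198423 to 11312826) had 774, 1067, 740.0, 896 and 1117 CPM in 4FM3 replicates 1 to 5, against 1061, 1084, 1096, 936 and 1039 CPM in PBS replicates 1 to 5. The groups overlapped: 4FM3 replicates 2 and 5 lay within or above the PBS range, and the other 3 4FM3 libraries lay below it. Col4a1 was not called, with a log2 fold change of -0.18 (95% interval -0.44 to 0.07, adjusted p = 0.221). Col4a2 (chromosome 8, 11312805 to 11449287) had 694, 919.8, 649, 791 and 927 CPM in 4FM3 replicates 1 to 5, against 949, 939, 953, 880.1 and 919 CPM in PBS replicates 1 to 5. It was not called either, with a log2 fold change of -0.22 (95% interval -0.44 to 0.00, adjusted p = 0.0993). Both passed, as lower, with library size alone as scaling, and Col4a2 also without 4FM3 replicate 5. On removal of 4 libraries, namely 4FM3 replicates 2 and 5 and PBS replicates 2 and 3, both passed as lower as well, with log2 fold changes of -0.34 (adjusted p = 0.0453) for Col4a1 and -0.37 (adjusted p = 0.0264) for Col4a2. Endothelial markers, which mark the vessels whose cells make much of this network, were higher for 5 of 10 genes and lower for 0, beside 20.9% higher over all genes tested, and summed to 1443 to 1519 CPM in 4FM3 and 1234 to 1456 CPM in PBS. With library size alone as scaling, 1 endothelial marker was higher and 1 lower, beside 1540 higher and 4967 lower of 12906 genes tested.

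The other type IV chains were less abundant and lower in 4FM3. Col4a5 had 119.8, 145, 109, 115 and 142 CPM in 4FM3 replicates 1 to 5, against 171, 164, 169, 165 and 163 CPM in PBS replicates 1 to 5. No values overlapped, and Col4a5 was 1.32-fold lower in 4FM3 (log2 fold change -0.40, SE 0.0809, adjusted p = 0.00208). Col4a6, with which it shares a head-to-head locus on the X chromosome, had 5.98, 9.61, 4.65, 7.402 and 8.09 CPM in 4FM3 replicates 1 to 5, against 18.6, 9.68, 11.1, 11.4 and 15.2 CPM in PBS replicates 1 to 5. It was 1.84-fold lower in 4FM3 (log2 fold change -0.88, SE 0.216, adjusted p = 0.00646), with no overlap. Col4a3, a chain of kidney, lung and inner ear basement membranes, had 16.3, 32.1, 14.3, 13.9 and 17.8 CPM in 4FM3 replicates 1 to 5, against 25.9, 27.8, 46.8, 30.4 and 32.1 CPM in PBS replicates 1 to 5. Its groups overlapped through 4FM3 replicate 2, and PBS replicate 3, one of the libraries with lung markers, was the highest. Col4a3 was 1.72-fold lower in 4FM3 (log2 fold change -0.78, SE 0.244, adjusted p = 0.0243), but without PBS replicates 2 and 3 its log2 fold change was -0.63 and its adjusted p = 0.0954. Col4a4, which pairs with Col4a3 in one network, was 1.46-fold lower in 4FM3 (log2 fold change -0.54, SE 0.167, adjusted p = 0.0224), and without PBS replicates 2 and 3 its log2 fold change was -0.52 and its adjusted p = 0.0853. Both calls were also lost in further settings.

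Type VI, the beaded collagen of the cell border, had 4 of 5 tested members lower and a median log2 fold change of -0.73. Its 3 main chains assemble together. Col6a1 had 199, 297, 219.8, 231 and 299 CPM in 4FM3 replicates 1 to 5, against 397, 417, 441, 386 and 426 CPM in PBS replicates 1 to 5. The groups did not overlap, and Col6a1 was 1.66-fold lower in 4FM3 (log2 fold change -0.73, SE 0.111, adjusted p = 0.000442). Col6a2 had 221, 333, 239, 243 and 326 CPM in 4FM3 replicates 1 to 5, against 397, 420.3, 459, 404 and 455 CPM in PBS replicates 1 to 5. Here too the groups lay apart, and Col6a2 was 1.57-fold lower in 4FM3 (log2 fold change -0.65, SE 0.116, adjusted p = 0.00103). Col6a3, the long chain, had 115, 226, 153, 178 and 255 CPM in 4FM3 replicates 1 to 5, against 292, 374, 356, 249.5 and 301 CPM in PBS replicates 1 to 5. The groups overlapped only in that 4FM3 replicate 5 stood above PBS replicate 4. Col6a3 was 1.696-fold lower in 4FM3 (log2 fold change -0.76, SE 0.199, adjusted p = 0.0108), and without PBS replicates 2 and 3 its adjusted p was 0.0822. Col6a5, an alternative to the long chain, had 13.04, 31.6, 24.4, 26.2 and 26.2 CPM in 4FM3 replicates 1 to 5, against 124, 103, 50.8, 36.3 and 57.1 CPM in PBS replicates 1 to 5. PBS replicates 1 and 2 were far above the other libraries, yet all 4FM3 libraries lay below all PBS libraries, and Col6a5 was 3.05-fold lower in 4FM3 (log2 fold change -1.61, SE 0.369, adjusted p = 0.00725). Col6a6, a further alternative chain, did not pass (log2 fold change -0.70, adjusted p = 0.0803), but was called lower with DESeq2 (adjusted p = 0.0389), without PBS replicate 4 (adjusted p = 0.0352) and with library size alone.

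Of the FACIT collagens, 5 of 6 tested members were lower, with a median log2 fold change of -1.28. Col14a1, which binds to the surface of type I fibrils and limits their growth, had 123, 219, 103, 144 and 218 CPM in 4FM3 replicates 1 to 5, against 366, 458, 374, 396 and 406 CPM in PBS replicates 1 to 5. The groups lay far apart, and Col14a1 was 2.48-fold lower in 4FM3 (log2 fold change -1.31, SE 0.199, adjusted p = 0.000655). Col12a1, a fibril-surface collagen of tissue under tension, had 22.1, 45.5, 24.8, 39.5 and 73.7 CPM in 4FM3 replicates 1 to 5, against 112, 187, 188, 130.4 and 140.5 CPM in PBS replicates 1 to 5. The highest 4FM3 value, that of replicate 5, was below the lowest PBS value. Col12a1 was 3.67-fold lower in 4FM3 (log2 fold change -1.88, SE 0.316, adjusted p = 0.0015). Col16a1 had 27.1, 58.9, 32.04, 37.01 and 70.7 CPM in 4FM3 replicates 1 to 5, against 98.3, 116, 101, 101 and 124 CPM in PBS replicates 1 to 5. The gene was 2.38-fold lower in 4FM3 (log2 fold change -1.25, SE 0.238, adjusted p = 0.00238), with no overlap. Col22a1, a collagen of the junction of muscle and tendon, had 3.22, 3.53, 2.403, 2.62 and 1.88 CPM in 4FM3 replicates 1 to 5, against 9.11, 9.05, 25.5, 6.33 and 13.1 CPM in PBS replicates 1 to 5. PBS replicate 3 was the highest, and no 4FM3 library reached the lowest PBS library. Col22a1 was 4.60-fold lower in 4FM3 (log2 fold change -2.20, SE 0.383, adjusted p = 0.00121). Col9a2, a cartilage chain present at about 1 CPM, was 2.26-fold lower in 4FM3 (log2 fold change -1.18, SE 0.347, adjusted p = 0.0161), with 1 4FM3 library above the lowest PBS library. Col9a2 passed the filter mainly through PBS, with 3 to 10 counts in 4FM3 and 10 to 15 counts in PBS. Col20a1 did not pass (log2 fold change -0.46, adjusted p = 0.0778).

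Among the remaining types, 5 of 8 tested members were lower, with a median log2 fold change of -0.68. Col15a1 and Col18a1 encode collagens of the basement membrane zone that carry sugar chains. Col15a1 had 278, 406, 260.0, 339 and 374 CPM in 4FM3 replicates 1 to 5, against 473, 416, 525, 436 and 428 CPM in PBS replicates 1 to 5. All 4FM3 values lay below all PBS values, by a narrow margin. Col15a1 was 1.37-fold lower in 4FM3 (log2 fold change -0.46, SE 0.121, adjusted p = 0.0091), and without PBS replicates 2 and 3 its adjusted p was 0.0526. Col18a1, the source of the fragment endostatin, had 27.8, 39.6, 22.9, 30.2 and 38.6 CPM in 4FM3 replicates 1 to 5, against 57.02, 75.2, 49.3, 52.5 and 58.9 CPM in PBS replicates 1 to 5. The groups did not overlap, and Col18a1 was 1.84-fold lower in 4FM3 (log2 fold change -0.88, SE 0.156, adjusted p = 0.00124). Type VIII is a short-chain network collagen of vessel walls and injured tissue. Its chain Col8a1 had 129, 276, 113, 122 and 235 CPM in 4FM3 replicates 1 to 5, against 343, 334, 385, 386 and 473 CPM in PBS replicates 1 to 5. Col8a1 was 2.19-fold lower in 4FM3 (log2 fold change -1.13, SE 0.256, adjusted p = 0.00575), and 4FM3 replicates 2 and 5 were the nearest to PBS. Col8a2 had 8.13, 36.3, 11.2, 15.7 and 29.9 CPM in 4FM3 replicates 1 to 5, against 54.8, 66.2, 58.7, 64.1 and 77.7 CPM in PBS replicates 1 to 5. The 4FM3 libraries were spread wide, from 8.13 to 36.3 CPM, but did not overlap with PBS. Col8a2 was 3.15-fold lower in 4FM3 (log2 fold change -1.65, SE 0.352, adjusted p = 0.0048). Col7a1, the anchoring fibril of skin, was present at low levels, with 0.4602, 1.41, 0.481, 0.925 and 1.59 CPM in 4FM3 replicates 1 to 5, against 3.78, 4.904, 7.18, 2.41 and 4.89 CPM in PBS replicates 1 to 5. It was 4.64-fold lower in 4FM3 (log2 fold change -2.21, SE 0.373, adjusted p = 0.000745), with no overlap. Col7a1 passed the filter mainly through PBS, with 3 to 11 counts in 4FM3 and 19 to 58 counts in PBS, so its fold change rests on few reads. The membrane-spanning collagens Col23a1 (log2 fold change -0.48, adjusted p = 0.105), Col13a1 (-0.12, adjusted p = 0.791) and Col17a1 (0.28, adjusted p = 0.562) did not pass.

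The other 9 members were too low for the test. Col10a1 had 0 counts in all 10 libraries, which allows up to 3 counts in each. Besides Col2a1, the remaining 7 (Col6a4, Col9a1, Col9a3, Col19a1, Col25a1, Col26a1 and Col28a1) had between 0 and 20 counts in any library. The highest of these was Col28a1, with 1 to 9 counts in 4FM3 and 4 to 20 counts in PBS.

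Ratios of chains within a library do not depend on scaling, so 8 were set side by side with an exact permutation test, two-sided, whose smallest possible p is 0.00794. They are ratios of counts and are not per length, so only the difference between groups is read. For the chains of type I, Col1a1 over Col1a2 was 0.860 to 1.11 in 4FM3 and 0.984 to 1.14 in PBS, a log2 difference of -0.10 (adjusted p = 0.265 by the exact test). Col1a1 over Col3a1 was 0.482 to 0.692 in 4FM3 and 0.615 to 0.724 in PBS, a log2 difference of -0.20 (adjusted p = 0.241, exact). Col4a1 over Col4a2 was 1.12 to 1.21 in 4FM3 and 1.06 to 1.15 in PBS, a log2 difference of 0.04 (adjusted p = 0.345, exact). For Col6a1 over Col6a3 the ratio was 1.17 to 1.73 in 4FM3 and 1.12 to 1.55 in PBS, a log2 difference of 0.05 (adjusted p = 0.675, exact). A p that misses the threshold does not show that these ratios were equal.

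The other 4 ratios differed between the groups. Col1a1 over Col4a1, the leading fibrillar against the leading basement membrane chain, was 0.719, 1.11, 0.782, 0.945 and 1.25 in 4FM3 replicates 1 to 5, against 1.92, 2.47, 2.02, 2.18 and 2.34 in PBS replicates 1 to 5. The log2 difference was -1.21 (adjusted p = 0.0212, exact permutation test), and all 5 4FM3 libraries lay below all 5 PBS libraries. Col5a1 over Col5a2 was 1.14 to 1.35 in 4FM3 and 0.922 to 1.06 in PBS, a log2 difference of 0.32 (adjusted p = 0.0212, exact), so Col5a2 was reduced by more than Col5a1. Col8a1 over Col8a2 was 7.60 to 15.8 in 4FM3 and 5.05 to 6.55 in PBS, a log2 difference of 0.66 (adjusted p = 0.0212, exact), so Col8a2 was reduced by more than Col8a1. In both ratios all 5 4FM3 libraries lay above all 5 PBS libraries. Col6a1 over Col6a2 was 0.892 to 0.948 in 4FM3 and 0.935 to 1.001 in PBS, with 4 of 5 4FM3 libraries below the lowest PBS library and a log2 difference of -0.08 (adjusted p = 0.0317, exact). That call was lost without 4FM3 replicate 1, 2, 3 or 5 (adjusted p = 0.0635 in each case).

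**Figure D4:**
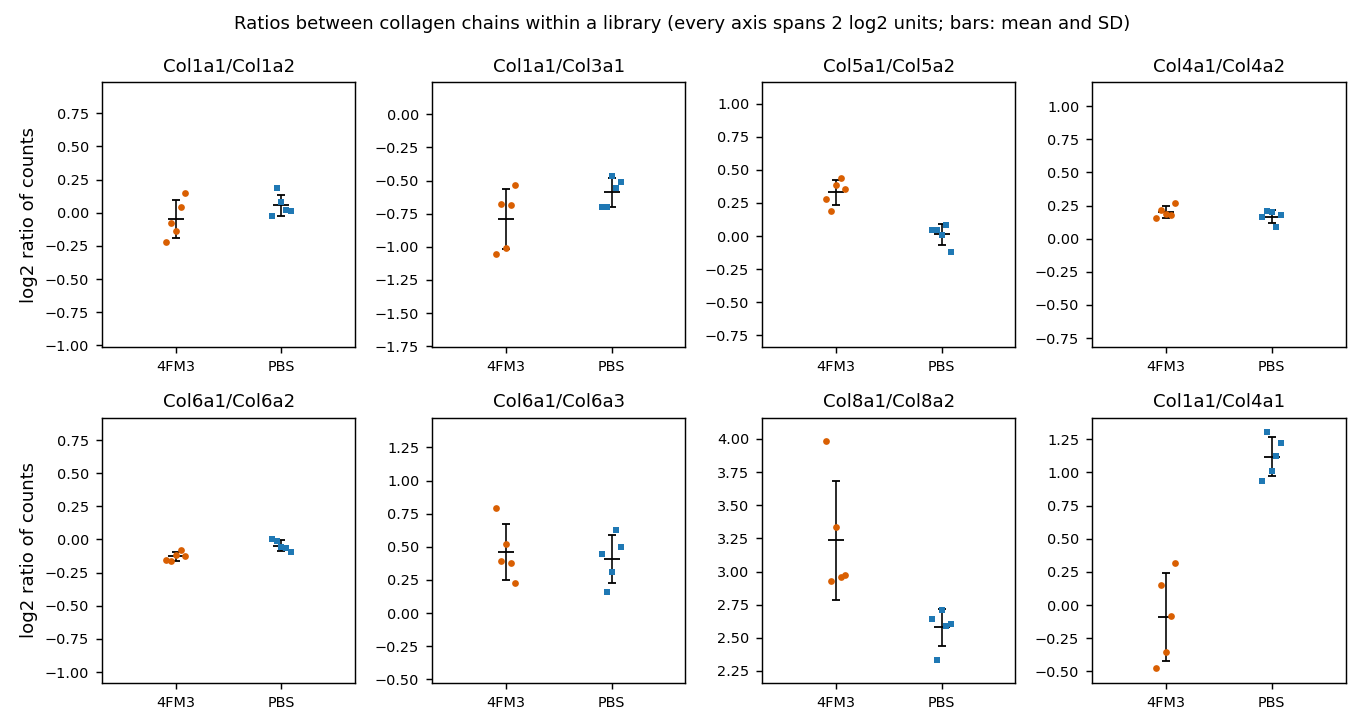
Log2 ratio of counts of 2 collagen chains in each library, 4FM3 left of PBS, with the group mean and SD (n = 5 each); every panel spans the same log2 range. The groups separate fully for Col5a1/Col5a2, Col8a1/Col8a2 and Col1a1/Col4a1, and overlap for the others.

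The spread within 4FM3 was shared by much of the family. In 25 of the 35 tested members, replicates 2 and 5 held the 2 highest values of the 4FM3 group, and replicate 5 was the highest in 18 and replicate 2 in 15. Replicate 3 was the lowest in 17 and replicate 1 in 11. In PBS the order was less shared, with replicate 2 highest in 11 members and replicate 3 in 10. With 4FM3 replicates 2 and 5 removed, along with the pair of PBS libraries that carried lung markers, 26 of 34 members tested were called lower. Over all genes tested in that setting, 17.5% were lower. The median log2 fold change of the 34 members was -1.08, and Col24a1 did not pass the filter there.

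**Figure D5:**
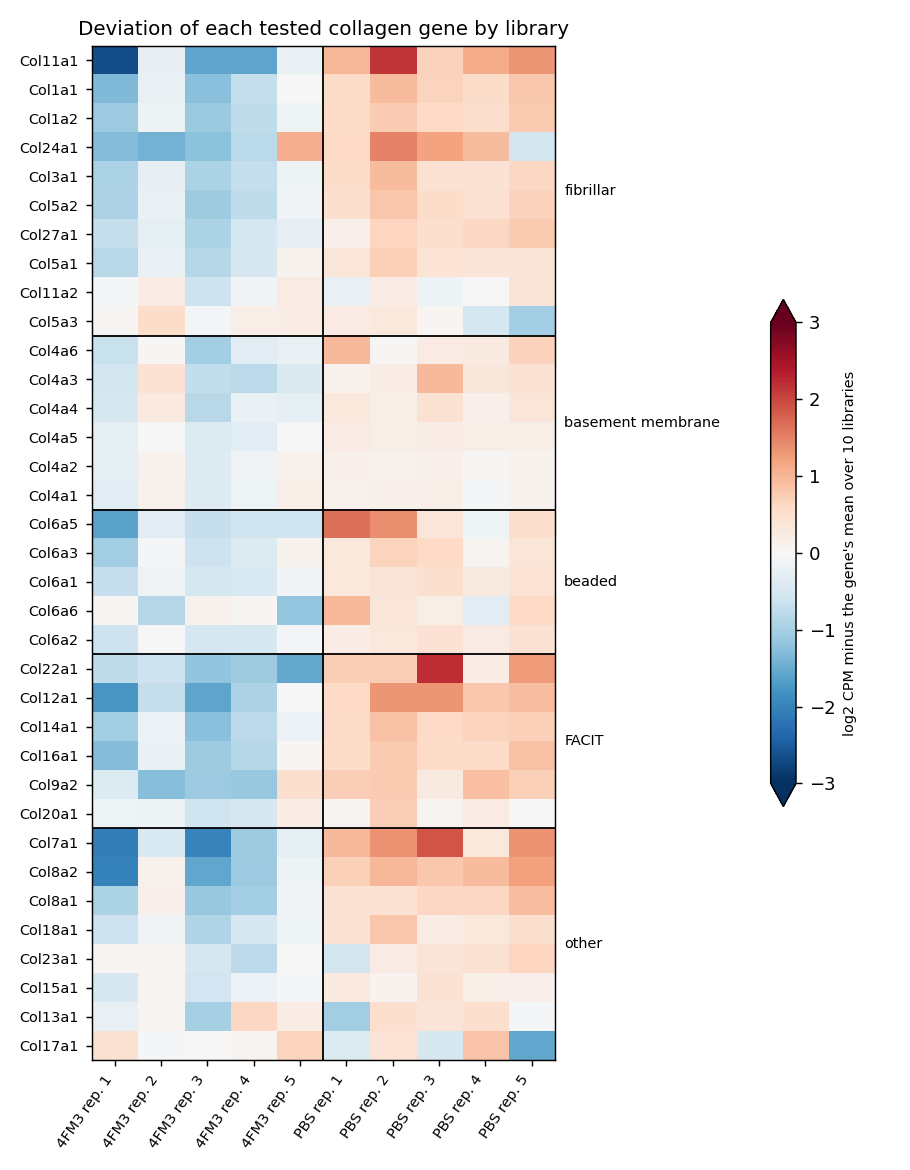
Log2 CPM of each tested collagen gene minus its mean over the 10 libraries, with 4FM3 replicates left of PBS replicates and genes grouped by class. Blue is below and red above the gene's mean; 4FM3 replicates 2 and 5 are paler than replicates 1 and 3 in most rows, and Col5a3, Col11a2, Col13a1 and Col17a1 show no division between the groups.

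Several collagen genes lie side by side on the chromosomes. Col4a1 and Col4a2 are arranged head to head on chromosome 8, their annotated spans overlap by 22 bases and neither was called. Col4a3 and Col4a4 are head to head 71 bases apart and both were lower. Col4a5 and Col4a6 are head to head 1308 bases apart and both were lower. Col3a1 and Col5a2 lie tail to tail 24614 bases apart, with log2 fold changes of -1.18 and -1.17. Of the tested members, 15 overlap an annotated gene on the opposite strand and 12 one on the same strand, and since the sources used here do not say whether counting used the strand, shared reads there cannot be told apart.

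RefSeq promoter windows (GRCm38.p6, from 250 bases before to 50 bases after the start) were found for 35 of the 44 members. Those of Col3a1 and Col1a2, lower in 4FM3, and of Col4a2, not called, are shown to let the starts of these classes be compared. Capitals mark the TATA box (TATAAA), the CCAAT box, which reads ATTGG on the other strand, and the GC box (GGGCGG), which reads CCGCCC on the other strand.
Col3a1 (chr1:45311288-45311587, + strand): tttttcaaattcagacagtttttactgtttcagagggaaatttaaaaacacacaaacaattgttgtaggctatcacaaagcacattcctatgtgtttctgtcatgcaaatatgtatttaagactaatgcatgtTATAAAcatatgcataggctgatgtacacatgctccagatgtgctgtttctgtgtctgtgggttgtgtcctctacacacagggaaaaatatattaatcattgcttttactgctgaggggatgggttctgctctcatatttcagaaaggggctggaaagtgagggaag
Col1a2 (chr6:4505368-4505667, + strand): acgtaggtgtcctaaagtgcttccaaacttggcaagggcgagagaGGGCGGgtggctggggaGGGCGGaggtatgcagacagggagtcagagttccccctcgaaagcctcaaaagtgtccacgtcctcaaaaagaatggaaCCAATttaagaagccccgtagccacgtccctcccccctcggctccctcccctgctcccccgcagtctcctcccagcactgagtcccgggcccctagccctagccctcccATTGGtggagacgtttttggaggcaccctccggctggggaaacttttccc
Col4a2 (chr8:11312555-11312854, + strand): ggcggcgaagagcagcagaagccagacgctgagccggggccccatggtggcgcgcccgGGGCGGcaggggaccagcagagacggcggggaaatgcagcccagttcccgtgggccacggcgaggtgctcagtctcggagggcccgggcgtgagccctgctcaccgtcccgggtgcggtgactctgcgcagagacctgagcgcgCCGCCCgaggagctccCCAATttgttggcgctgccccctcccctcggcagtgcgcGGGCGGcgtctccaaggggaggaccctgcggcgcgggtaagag
The window of Col3a1 holds a TATAAA 117 bases before the start and neither other motif. That of Col1a2 holds GGGCGG 205 and 188 bases and CCAAT 109 bases before the RefSeq start used, with ATTGG at that start itself. The GENCODE span of Col1a2 begins at 4504814, upstream of this window, so these distances hold for the RefSeq start only. That of Col4a2, which shares 78 bases with the window of Col4a1, holds GGGCGG or its complement at 3 places and CCAAT 32 bases before the start. On either strand GGGCGG was found in 22 of 35 collagen promoters and 35.9% of 27025 promoters, CCAAT in 12 of 35 and 37.9%, and TATAAA in 5 of 35 and 14.2%. A match is a description of the letters only. Col1a1, Col2a1, Col4a3, Col5a2, Col9a3, Col12a1, Col14a1, Col22a1 and Col26a1 were not matched in the table.

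Collagen messages are known targets of the miR-29 family in the heart, small RNAs that pair with sites in the 3′ untranslated region through the seed at bases 2 to 8. Small RNAs were not measured here. The mature sequences from RefSeq share one seed, in capitals.
mmu-miR-29a-3p: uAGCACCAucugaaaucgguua
mmu-miR-29b-3p: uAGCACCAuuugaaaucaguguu
mmu-miR-29c-3p: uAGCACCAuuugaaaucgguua
A match to that seed, TGGTGCT on the message strand, occurred in the 3′ untranslated region of 21 of the 35 tested collagens (60.0%) and of 2008 of 12224 tested genes with such a region (16.4%), in GENCODE release M21 and with no allowance for length. It was present in 8 of 10 fibrillar, 6 of 6 basement membrane, 2 of 5 beaded, 2 of 6 FACIT and 3 of 8 other members tested. Sites of 2 genes that were lower and of 1 that was not called are shown, with the match in capitals.
Col1a1 (chr11:94952523-94952552, + strand): gtgggaaggaatttcTGGTGCTatagaagc
Col3a1 (chr1:45348967-45348996, + strand): ttcaaaatgtctcaaTGGTGCTataataaa
Col4a1 (chr8:11199754-11199783, - strand): gccaccgtcacaacaTGGTGCTactccccc
By presence of a match, 17 of 21 with a match were lower, with a median log2 fold change of -0.88, and 8 of 14 without one were lower, with a median of -0.80. Over all genes tested 22.1% were lower, and the share among those with a match was not counted. The part of miR-29 in the result was not tested.

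The machinery around collagen moved in the same direction for the most part. Of 30 genes that modify, fold, cut or crosslink collagen, 19 were lower and 2 higher, with a median log2 fold change of -0.50, where over all genes tested 22.1% were lower and 20.9% higher with a median of -0.03. The 3 with the smallest p were Fkbp10, a chaperone of procollagen (2.05-fold lower, adjusted p = 0.000261), Adamts2, which removes the amino propeptide (2.07-fold lower, adjusted p = 0.000749), and P3h3, of the prolyl 3-hydroxylase family (1.93-fold lower, adjusted p = 0.000972). Those higher were P4ha2, a prolyl 4-hydroxylase subunit (1.20-fold, adjusted p = 0.0361), and Plod1, a lysyl hydroxylase (1.12-fold, adjusted p = 0.0488). With library size alone as scaling neither of these was called, and the estimate for Plod1 turned to -0.00923 in log2. Of 9 tested receptors, 7 were lower and 0 higher (median -0.80), against the same shares over all genes. They were led by Ddr2, the discoidin domain receptor of fibroblasts (1.48-fold lower, adjusted p = 0.000708), the integrin subunit Itga2 (3.61-fold lower, adjusted p = 0.000895) and Mrc2, which takes up collagen fragments (1.74-fold lower, adjusted p = 0.00175).

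Genes that break down collagen or hold back that breakdown gave 5 lower and 0 higher of 11 tested (median -0.72), beside 22.1% lower over all genes tested. The smallest p belonged to Timp2, an inhibitor of matrix proteases (1.81-fold lower, adjusted p = 0.000953), Mmp2, a gelatinase (1.77-fold lower, adjusted p = 0.00106), and Timp3, another inhibitor (2.33-fold lower, adjusted p = 0.00114). Of 10 proteins that bind fibrils, 10 were lower (median -1.06), among them Thbs2 (2.08-fold lower, adjusted p = 0.000271), Lum, a small leucine-rich proteoglycan (1.72-fold lower, adjusted p = 0.000439), and Sparc, a collagen-binding matrix protein (1.92-fold lower, adjusted p = 0.000533). All of these adjusted p are from edgeR's quasi-likelihood test over the 12906 genes tested.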

How the data were processed

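RNA-seq counts of 10 left ventricle libraries, 5 labelled 4FM3 and 5 labelled PBS, were used. Per the labels, ribosomal RNA was removed before directional libraries were made. Per the submitters' processing notes the build was mm10; for the aligner, counter, annotation and use of strand, this is not given in the sources used here. The deposited count columns hold whole-number reads per gene. The authors also deposited a normalized signal, equal to the count times 1 factor per library (0.931 to 1.11), and log2 of that signal plus 1, per the file headers and values; only counts were tested.

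Tests used edgeR 4.0.16 (R 4.3.3): filterByExpr by group (a minimum count of 10, or 1.375 CPM), TMM, robust quasi-likelihood test of 4FM3 over PBS with no covariate, Benjamini-Hochberg adjustment over 12906 genes and a threshold of 0.05. The same fit was tested against 1.5-fold. SE and 95% intervals come from that fit. Chain ratios had exact permutation tests with Benjamini-Hochberg adjustment over the 8. Alternatives were DESeq2 1.42.0, limma 3.58.1 voom, other scalings, no filter and libraries left out. In 26 rows a calendar date stood for the symbol (0.131% to 0.161% of counts); these were kept and hold no symbol of the family.

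The family as a subject, and so its members, the gene lists and the tests, were chosen with earlier results of these data known; the rule for membership itself reads only the symbol. Values in every library are given for the 3 most abundant tested members of each class, the 2 called members of each class with the largest change and every member of a ratio; other genes singled out were chosen after their values were seen. Lists of other genes covered collagen processing, receptors, turnover and fibril partners, with the 3 smallest p named, and markers of cardiomyocytes, fibroblasts, endothelium, pericytes and smooth muscle, macrophages, lung, cartilage, Schwann cells and mesothelium. Positions and exon lengths are from GENCODE M21 on GRCm38. Each library gives at least 6634159 counts.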

Additional observations from a re-analysis of the deposited data

Results flagged for a closer look

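Among 76 groups of 5 values (named members, class shares and chain ratios), 2 held a library whose gap to the next value, over the range of the group, passed the critical value of 0.71; chance flags about 1 in 20 groups. Col4a3 stood at 32.1 CPM in 4FM3 replicate 2, above the other 4FM3 libraries (13.9 to 17.8 CPM). Col5a1 stood at 522 CPM in PBS replicate 2, above the other PBS libraries (412 to 421 CPM).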

How the results depend on the processing

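Of the 25 members called lower, 20 passed in all 18 alternatives and none changed sign; Col4a3, Col4a4, Col15a1, Col6a3 and Col6a5 lost the call in at least 1. Of the 10 members not called, 6 (Col4a1, Col4a2, Col6a6, Col20a1, Col23a1 and Col24a1) passed as lower in at least 1. The count of members lower was 21 to 31, of members higher 0 and the median of members -0.78 to -1.08. The share of all genes tested that was called lower ranged from 12.6% to 38.5%. Over all genes, 3521 were called without PBS replicates 2 and 3. The count of members past 1.5-fold was 11 with library size alone, 2 with no filter, 4 with DESeq2, 0 with limma-voom, 11 with the replicate block, 0 to 14 with 1 library left out, 0 without PBS replicates 2 and 3, and 18 without 4 libraries (that PBS pair plus 4FM3 replicates 2 and 5). The share of all genes past 1.5-fold was not counted in these settings. Same-numbered libraries deviated with correlations of -0.04 to 0.06, against -0.22 to 0.27 for libraries of different numbers. No shared deviation by number was seen, but this cannot tell whether the hearts were handled in pairs. With the replicate block the smallest p for a ratio is 0.0625 and none of the 4 that differed passed (adjusted p = 0.125, exact): Col5a1/Col5a2 0.32, Col6a1/Col6a2 -0.0819, Col8a1/Col8a2 0.66 and Col1a1/Col4a1 -1.21 (log2). Without PBS replicates 2 and 3 they were 0.32, -0.0739, 0.62 and -1.18; without 4FM3 replicates 2 and 5 as well, 0.36, -0.0634, 0.81 and -1.40. None of them passed in either setting, and with all 4 libraries removed too few assignments remained for any ratio to pass. With 1 library left out Col6a1/Col6a2 was -0.0701 to -0.0947. The uncalled Col6a1/Col6a3 (0.05) turned to -0.0282 without 4FM3 replicate 1, -0.00857 without PBS replicate 2 and -0.0621 without PBS replicates 2 and 3. The uncalled Col11a2 turned to 0.0344 without 4FM3 replicate 3 and 0.0213 without PBS replicate 5 (-0.15 to 0.0344 with 1 library left out). The uncalled Col13a1 turned to 0.0454 without 4FM3 replicate 3, 0.11 without PBS replicates 2 and 3 and 0.0126 without 4 libraries (-0.31 to 0.0454 with 1 library left out). The cause was not tested. Depth limits the members under about 1 CPM, such as Col9a2 and Col7a1 in 4FM3. An empty vector and uninjured hearts were not analysed here.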

Other observations

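Further ratios to a cell marker in the same library, chosen after values had been seen and given with no test, were as follows. Col14a1 over Pdgfra was 0.722 to 1.53 in 4FM3 and 1.84 to 2.31 in PBS, and over each of 10 fibroblast markers the groups lay apart with 5 and overlapped with 5. Col15a1 over Pecam1, an endothelial marker, was 1.32 to 2.06 in 4FM3 and 2.31 to 2.87 in PBS, with no overlap; over each of 10 endothelial markers the groups lay apart with 6 and overlapped with 4. Col4a1 over Pecam1 was 3.67 to 5.82 in 4FM3 and 4.98 to 6.09 in PBS, with overlap.

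Markers of other cells were counted in the same way, beside 22.1% lower and 20.9% higher over all genes tested. Of 10 macrophage markers, 6 were lower and 0 higher by edgeR's quasi-likelihood test. The summed level was 638 to 825 CPM in 4FM3 and 711 to 1625 CPM in PBS, or 711 to 1485 CPM without PBS replicates 2 and 3. Of 10 pericyte and smooth muscle markers, 6 were lower and 3 higher, with a summed level of 1814 to 2046 CPM in 4FM3 and 1502 to 1862 CPM in PBS. Schwann cell markers gave 3 lower and 0 higher of 6 tested, with 19.4 to 27.5 CPM in 4FM3 and 30.7 to 43.3 CPM in PBS. Mesothelial markers gave 2 lower and 0 higher of 9 tested, a share near that over all genes, and summed levels overlapped, with 30.8 to 143.8 CPM in 4FM3 and 65.1 to 288 CPM in PBS. Cardiomyocyte markers gave 9 higher and 0 lower of 10. Lung markers gave 1 lower (Napsa) and 1 higher (Hopx) of 2 tested, and those other than Hopx stood out in PBS replicates 2 and 3. Calls of marker genes without that pair are not given here. The part of all these markers in the values of the collagens was not tested.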
